A study of Saccharomyces cerevisiae with 1 sample.

Results

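The RNAs described here are 6 small RNAs that act in the cleavage or folding of pre-ribosomal RNA rather than only guiding a chemical modification. They were chosen by name and not by their values, although earlier results of these data were known when the choice was made. They are SNR17A and SNR17B (the gene copies of U3), SNR128 (U14), SNR30, SNR190 and NME1, and all 6 were found among the 67 RNAs of the deposited snoRNA table. The data come from 1 CRAC library of BY4742, a laboratory strain of Saccharomyces cerevisiae in which no protein carried a tag. The strain was grown in minimal medium without tryptophan and with glucose to an OD600 of 0.6. In CRAC, RNA is cross-linked to protein in living cells with UV light, the tagged protein is purified in successive steps, and the attached RNA fragments are converted to cDNA (here with 16 PCR cycles) and sequenced. Since BY4742 has no tagged protein, its hits are the background of the purification, against which a tagged protein can be set. No tagged library was analysed here. The control has no replicate, so no value below has an SD, an interval or a p-value. A difference between RNAs is a difference within this library only.

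Small nucleolar RNAs (snoRNAs) pair with the pre-rRNA in the nucleolus. Box C/D snoRNAs mostly guide ribose methylation and box H/ACA snoRNAs mostly guide pseudouridine formation, and a few of each family are needed for the pre-rRNA to be cut or folded. U3, a box C/D RNA, pairs with the 5′ external spacer and with the 18S rRNA sequence and is required for the early cleavages that release the 18S precursor. U14, also of the box C/D family, is essential, is needed for 18S production and in addition guides a methylation of the 18S rRNA. SNR30 is an essential box H/ACA RNA that pairs with the 18S sequence and is needed for the same early cleavages. SNR190 is a box C/D RNA that pairs with the 25S rRNA and acts as a chaperone of its folding. NME1 is the RNA of RNase MRP, an enzyme that cuts the first internal spacer, and is not a snoRNA, although the authors listed it with that class. No sequences of these 6 RNAs are shown, since none was part of the data used here.

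The library gave 30680 hits per 1000000 reads (RPM) to the snoRNA class, which was 3.07% of all hits. The 67 rows of the table summed to that total exactly. The number of reads behind the RPM values is unknown. All 67 names matched a gene symbol of the R64 assembly in RefSeq, which is also the build given in the submitters' processing notes. RefSeq lists 76 genes of the snoRNA type, of which 10 had no row in the table. Values per kilobase (RPM per kb) were obtained by dividing RPM by the length of the annotated gene. Each U3 gene carries an intron that the mature RNA lacks, so the annotated lengths of SNR17A and SNR17B exceed that of the mature RNA, and their RPM per kb are understated if the hits fell on mature U3.

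Together the 6 RNAs received 6202 RPM, which was 20.2% of the hits of the snoRNA table, while making up 8.96% of its rows. The hits were unevenly divided among them. SNR128 alone had 63.3% of the hits of the 6, and without SNR128 the remaining 5 held 8.52% of the remaining hits of the table. Of all hits of the table these 5 held 7.43%, close to their 7.46% of its rows. The median of the 6 was 560 RPM, against 181 RPM for the other 61 RNAs and 219 RPM for the whole table. Of the 6, 5 lay above the table's median and SNR17B lay below it. Of the other 61 RNAs, 28 lay above it. Among box C/D RNAs, 3 of the 4 in the set and 26 of the 42 others did. Divided by length this difference in level was not seen. The median of the 6 was 1510 RPM per kb, against 1595 RPM per kb for the other 61. The 6 genes are long, with a median of 401 nucleotides against 102 nucleotides for the others. Per kilobase, the 6 RNAs held 13.3% of the summed values of the table. Most of this share was that of SNR128, which had 31135 RPM per kb. The remaining 5 had between 184 and 1726 RPM per kb, with a median of 1307 RPM per kb.

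**Figure D1:**
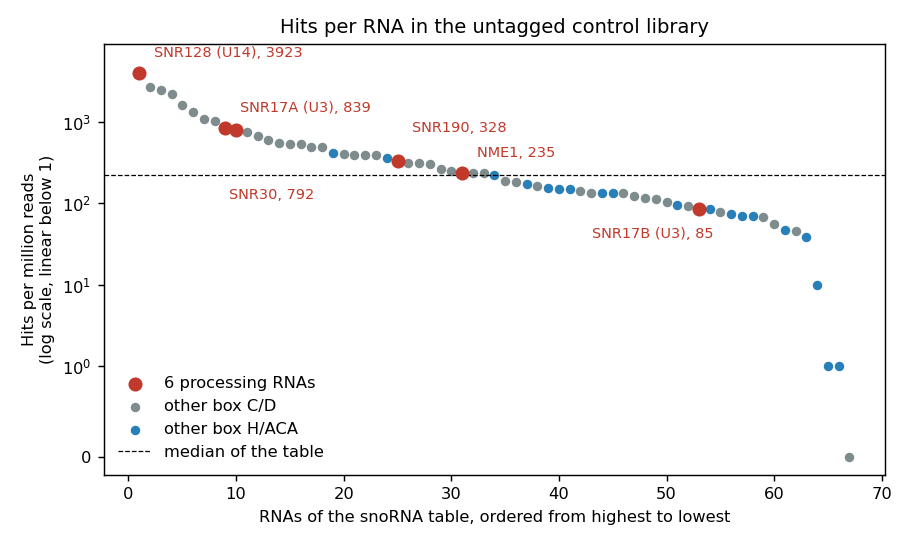
Hits per 1000000 reads (vertical axis, logarithmic and linear below 1) for each of the 67 RNAs of the untagged control, ordered from highest to lowest. Red points are the 6 processing RNAs with their values, grey points other box C/D RNAs, blue points other box H/ACA RNAs, and the dashed line is the median of 219 RPM. SNR128 is the highest point, SNR17A and SNR30 lie next to each other at ranks 9 and 10, and SNR17B lies at rank 53, below the median.

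SNR128, the U14 RNA, had the most hits of all 67 RNAs. It received 3923 RPM, which was 12.8% of the snoRNA hits, 14.4% of the hits of the 46 box C/D RNAs, and 1.32% of all hits outside rRNA, a class that took 70.4% of the hits in the deposited class table. The whole tRNA class received 9968 RPM, so that SNR128 alone equalled 39.4% of it. The next row was SNR61, a box C/D guide RNA with 2690 RPM, and SNR128 was 1.46-fold above it. Per kilobase SNR128 was again the highest, but with 31135 RPM per kb against 29889 RPM per kb for SNR61 it stood 1.04-fold above it. The third highest row outside the 6, after SNR61 and SNR75 (2433 RPM), was SNR41 with 2160 RPM. Per kilobase SNR75, of 89 nucleotides, had 27337 and SNR41, of 95 nucleotides, had 22737, both below the 126-nucleotide U14.

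U3 was listed in separate rows for its gene copies, with 839 RPM for SNR17A and 85 RPM for SNR17B. SNR17A ranked 9th of the 67 RNAs and SNR17B ranked 53rd. SNR17A held 2.73% of the snoRNA hits and SNR17B held 0.277%. The ratio of SNR17A to SNR17B was 9.87, so that 90.8% of the U3 hits were assigned to SNR17A and 9.20% to SNR17B. Per kilobase of the annotated genes (490 nucleotides for SNR17A, 462 for SNR17B) the ratio was 9.31, with 1712 RPM per kb against 184 RPM per kb. The mature RNAs of the copies are nearly identical, and a read from a stretch that they share cannot be placed on one of them by its sequence. How the authors' alignment and counting placed such reads is not given in the sources used here. The split between the copies is therefore uncertain, and the ratio cannot be read as a ratio of their RNA levels. Their sum does not depend on that split, provided that each shared read was counted, and for 1 copy only. If shared reads were left out, the sum is too low.

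Summed over both genes, U3 had 924 RPM, or 3.01% of the snoRNA hits. As a single row it would rank 9th of 66 RNAs, the same place as SNR17A on its own, between SNR40 (1020 RPM) and SNR30. Pooling the copies thus changed neither the place of U3 in the order nor that of the other 4 RNAs above SNR17B. SNR128 exceeded the sum of U3, as counted, by 4.25-fold. Around SNR17A, the row above it was SNR40, a box C/D guide RNA that had 1.22 times its RPM. SNR40, being 97 nucleotides long, had 6.14 times the RPM per kb of SNR17A (10515 against 1712), whose gene length includes the intron. Around SNR17B, the row above was SNR13 with 92 RPM and the row below was SNR84 with 84 RPM. Only 5 of the 46 box C/D RNAs had fewer hits than SNR17B.

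SNR30 received 792 RPM, which was 2.58% of the snoRNA hits and rank 10 of 67, directly after SNR17A. SNR17A and SNR30 were 47 RPM apart, a ratio of 1.06, and per kilobase, with the intron in the length of SNR17A, the ratio was 1.31. The row below SNR30 was SNR39B, a box C/D guide RNA with 751 RPM. Within its own family SNR30 stood out more than in the whole table. It was the highest of the 20 box H/ACA RNAs and held 792 of their 3168 RPM. The other 19 had between 1 and 409 RPM with a median of 96 RPM, of which SNR30 had 8.25 times as many. The highest of the others were SNR37 (409 RPM) and SNR189 (363 RPM), and SNR30 was 1.94-fold above SNR37 and 2.18-fold above SNR189. SNR10, a box H/ACA guide RNA that is also known for a role in early pre-rRNA cleavage, had 172 RPM, and SNR30 had 4.60 times that value.

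SNR30 is also the longest RNA of the table, with 606 nucleotides. Per kilobase its value was 1307, rank 38 of 67, and second among the box H/ACA RNAs. The other 19 box H/ACA RNAs had a median length of 204 nucleotides and a median of 433 RPM per kb. The highest of them by this measure was SNR189 with 1921 RPM per kb over 189 nucleotides, of which SNR30 had 0.680 times as many. Against SNR37 (1060 RPM per kb) the ratio was 1.23, and against SNR10 (702 RPM per kb) it was 1.86. SNR30 was thus at the top of its family by hits and not by hits per length.

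**Figure D2:**
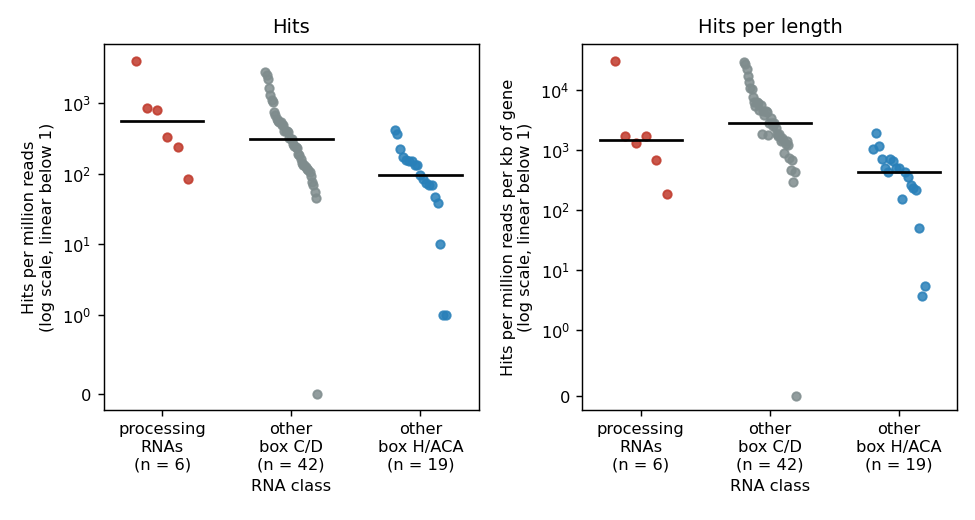
Hits per 1000000 reads (left) and hits per 1000000 reads per kilobase of gene (right), both on a logarithmic axis that is linear below 1, for the 6 processing RNAs, 42 other box C/D RNAs and 19 other box H/ACA RNAs of the untagged control. Each point is 1 RNA and the black lines are medians (560, 308 and 96 RPM on the left). On the left the median of the processing RNAs is the highest, and on the right it lies below that of the other box C/D RNAs (1510 against 2844 RPM per kb).

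SNR190 received 328 RPM, or 1.07% of the snoRNA hits, and ranked 25th of 67. It lay close to the middle of its family, at rank 22 of 46 box C/D RNAs, and the median of the 42 other box C/D RNAs was 308 RPM. The row above it was SNR189 with 363 RPM and the row below was SNR45, a box C/D RNA, with 313 RPM. Per kilobase SNR190 had 1726 and ranked 31st, next to SNR17A (rank 32 with 1712 RPM per kb over a gene length that includes the intron). The median of the other box C/D RNAs was 2844 RPM per kb, which was above SNR190.

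SNR190 and SNR128 are neighbouring genes that are transcribed as 1 precursor, from which both RNAs are cut. In the R64 assembly SNR190 lies at chrX:139761-139950 and SNR128 at chrX:139566-139691, both on the Crick strand, with SNR190 upstream and 69 nucleotides between them. SNR128 had 3923 RPM and SNR190 had 328 RPM, a ratio of 12.0. Per kilobase the ratio was 18.04, since SNR190 is the longer of the pair with 190 nucleotides. RNAs cut from a common transcript thus differed by 12.0-fold in hits in this library, in which no protein was tagged. Levels of the RNAs in total RNA were not analysed here, so that a difference in RNA level and a difference in recovery cannot be told apart.

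To place this ratio, the other snoRNA genes were grouped by position, joining genes of the table on the same strand with fewer than 500 nucleotides between them. This gave 5 further groups, in which the genes lie close together, but for which a common precursor was not examined. In the group SNR41, SNR70 and SNR51, in the order of transcription, the values were 2160, 77 and 596 RPM, a ratio of 28.1 between highest and lowest. In the group SNR57, SNR55 and SNR61 they were 163, 142 and 2690 RPM, a ratio of 18.9. In the group of 7 genes from SNR78 to SNR72, SNR75 was highest with 2433 RPM and SNR74 lowest with 132 RPM, a ratio of 18.4. In contrast, SNR67 and SNR53 had 234 and 263 RPM, a ratio of 1.12. The fifth group was NME1 and SNR66, with 235 and 104 RPM. The ratio of SNR128 to SNR190 was therefore exceeded in 3 of the 5 other groups, on the scale of hits as well as per kilobase. Per kilobase the 3 ratios were 48.4, 20.6 and 18.2 against 18.04, so that the group of SNR75 was nearly level with the pair. A group of more genes has more chances of a high ratio between its extremes, and the 3 groups with the larger ratios hold 3 genes or more. In these 3 groups the highest RNA exceeded the next by 3.62-fold (SNR41), 16.5-fold (SNR61) and 4.59-fold (SNR75). SNR128 stood 12.0-fold over SNR190, the only other gene of its group, and by this measure only SNR61 exceeded it. In a pair the next RNA is also the lowest, so this measure favours a pair over larger groups. The place of the highest RNA along the transcribed strand was not the same throughout, since SNR41 is the most upstream gene of its group, SNR61 and SNR128 are the most downstream, and SNR75 lies in the middle.

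**Figure D3:**
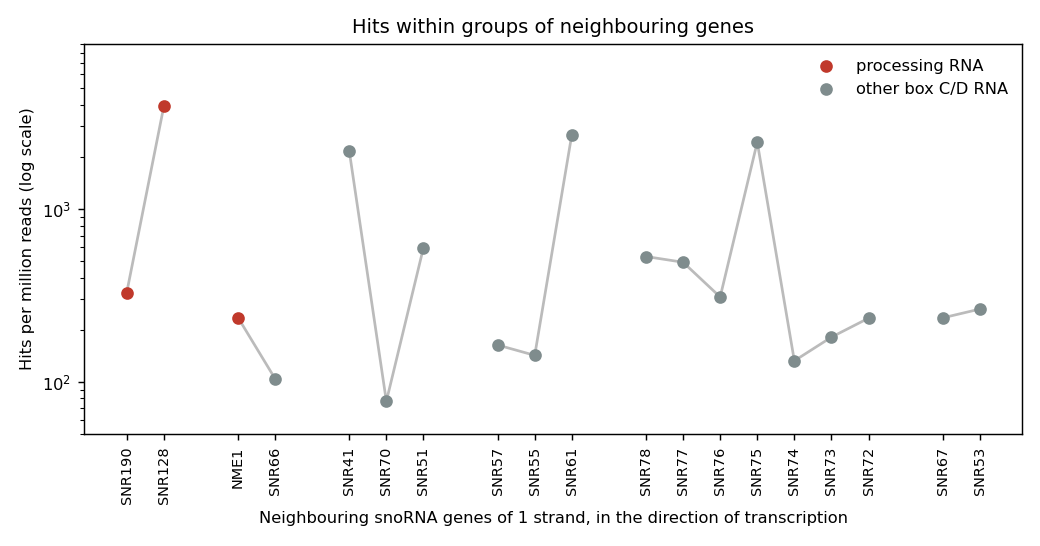
Hits per 1000000 reads (logarithmic axis) of the untagged control for snoRNA genes that neighbour each other on 1 strand, in the direction of transcription, with a line joining the genes of a group. Red points are processing RNAs and grey points other box C/D RNAs. SNR128 lies 12.0-fold above SNR190, and SNR41, SNR61 and SNR75 lie farther above the lowest gene of their groups. Measured over the next-highest gene of the group, which in a pair is also the lowest, only SNR61 lies farther above it than SNR128.

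NME1 received 235 RPM, or 0.766% of the hits of the snoRNA table, and ranked 31st of 67, just above the median of 219 RPM. The rows around it were SNR58 with 247 RPM and SNR67 with 234 RPM. Per kilobase of its 340 nucleotides NME1 had 691 and ranked 47th. The gene lies at chrXIV:585587-585926 on the Watson strand, and the box C/D gene SNR66 follows it on the same strand after 163 nucleotides. SNR66 had 104 RPM, so that NME1 had 2.26 times its hits, but per kilobase NME1 had 0.572 times the value of SNR66 (1209 RPM per kb). Without NME1, the other 5 RNAs held 19.6% of the hits of the remaining rows.

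The other genes lie at chrXV:780107-780596 on the Watson strand (SNR17A), chrXVI:281056-281517 on the Crick strand (SNR17B) and chrXII:198784-199389 on the Watson strand (SNR30). Except for the SNR190 and SNR128 pair, the 6 genes are thus on separate chromosomes. Of the 8 RNAs of the table with at least 300 nucleotides, 4 were among the 6, and SNR17A and SNR30 had the most hits of these 8. SNR37, NME1, SNR83, SNR42, SNR17B and SNR84 followed in this order. Across all 67 RNAs, Spearman's rho between RPM and gene length was -0.28. Within the 46 box C/D RNAs it was -0.07 and within the 20 box H/ACA RNAs it was 0.39. These are descriptions across RNAs of 1 library, in which the RNAs are not independent replicates. Dividing by length lowered the rank of 5 of the 6 and left SNR128 in the first place. By RPM per kb SNR190 ranked 31st, SNR17A 32nd, SNR30 38th, NME1 47th and SNR17B 62nd. The ranks of SNR17A and SNR17B rest on gene lengths that include the intron.

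**Figure D4:**
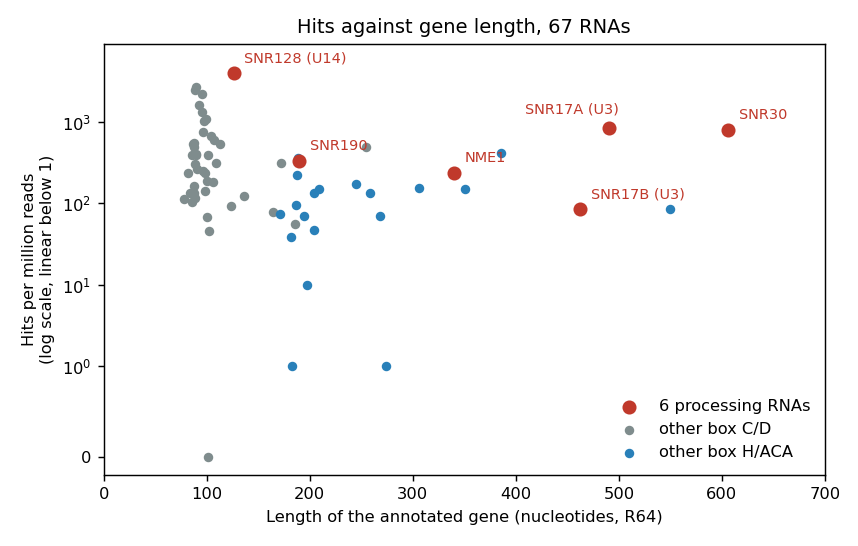
Hits per 1000000 reads (logarithmic, linear below 1) against the length of the annotated gene in nucleotides for the 67 RNAs of the untagged control. Red points are the 6 processing RNAs, grey points other box C/D RNAs and blue points other box H/ACA RNAs. Of the red points, SNR17A, SNR17B, SNR30 and NME1 have lengths of at least 300 nucleotides, with values of 839, 85, 792 and 235 RPM, while SNR128, the shortest of the 6, has 3923 RPM.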

How the data were processed

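The material was 1 CRAC library of the untagged BY4742 strain. MiSeq reads were cleaned by the authors using Flexbar and mapped using Novoalign to yeast build R64 (submitters' processing notes), and pyCRAC served for hit counting. The deposited hits per RNA and per class are RPM values (per 1000000 reads), given as whole numbers. The 6 classes summed to exactly 1000000. The named settings leave it unclear if these were rescaled or came from a capped number of reads, so no interval or detection limit is given. Hits of reads amplified by PCR are not independent molecules. The deposited pileup of the 25S rRNA was not used. Gene lengths, strands and positions came from RefSeq's R64 table, which holds no sequence.

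Shares, ranks (tied rows share the better rank), medians and ratios were computed with Python 3.11.15 and scipy 1.17.1, and figures with matplotlib 3.10.9. Rank, share and grouping functions were tested on simulated tables and returned the known answers. Alternatives were the total, pseudocounts of 10 and 100 RPM, division by gene length and a filter at 10 RPM. The 6 RNAs, the box C/D and H/ACA lists and the choices above were made with earlier results of these data known. The text names the 6 RNAs, the rows next to them, the 3 highest other rows, SNR10 and the extremes of neighbouring gene groups. SNR189, SNR37, the other RNAs of the neighbouring groups and the RNAs of at least 300 nucleotides were named after their values were seen. With 1 library, nothing was tested.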

Additional observations from a re-analysis of the deposited data

How the results depend on the processing

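With 1 library there is no spread to set a change against, so a share or ratio counts as unchanged where 3 significant digits stayed the same. The share of the 6 RNAs, 20.2% of the snoRNA hits, was 19.6% without NME1, 13.3% per kilobase, 0.620% of the hits of all classes and 2.09% of those outside rRNA. Leaving out SNR128, chosen after seeing the data, gave 8.52%. It was unchanged without the 3 rows under 10 RPM and, chosen after seeing the data, with the U3 copies as 1 row. The ratio of SNR17A to SNR17B, 9.87, was 8.94 with 10 RPM added to both, 5.08 with 100 RPM added and 9.31 per kilobase. The ratio of SNR128 to SNR190, 12.0, was 11.6 with 10 RPM added, 9.40 with 100 RPM added and 18.04 per kilobase. All these changes follow from how each alternative is built. No ratio turned its direction. The ranks of the 6 RNAs were unchanged without the rows under 10 RPM, and per kilobase only that of SNR128 was kept. Windows that occur once in the genome and complements to the 25S rRNA were planned and not run, since no sequence of these RNAs was used here. No paired analysis was possible because the control is a single sample, which also left no replicate to omit.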
